A study of Mus musculus with 2 samples.

Results

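The genes of the mouse mitochondrial genome were examined in adult thymus. They were taken as all genes whose GENCODE symbol starts with mt-, which gave 37 of the 43346 genes in the deposited tables: 13 mRNAs, 2 rRNAs and 22 tRNAs. Thymus was taken at 8 weeks of age from the inbred mouse strain C57BL/6J, with males and females pooled, and its RNA was sequenced in 2 libraries, biological replicates 1 and 2 of a single group. Per the labels, rRNA was depleted, polyadenylated RNA longer than 200 nucleotides was kept, spike-in RNAs were added, and the stranded libraries were read as pairs of 76 bases. The labels give 1 donor entry and littermates for both libraries, so the spread between them may be technical, and the series holds no treated or control group.

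Mitochondrial DNA is a small circle without introns, copied by its own RNA polymerase, Polrmt, from a control region into long precursors of both strands. Most genes are read from the heavy-strand promoter (the plus strand of the annotation), whereas mt-Nd6 and some of the tRNAs are read from the light-strand promoter (the minus strand). The tRNAs punctuate the precursors, and their excision frees the rRNAs and most of the mRNAs, which then receive short poly(A) tails. In several mRNAs that tail completes the stop codon. The mRNAs encode core subunits of complexes I, III, IV and V of oxidative phosphorylation. Stretches of mitochondrial DNA have also been copied into the nuclear genome, where annotation lists them as pseudogenes.

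Several sequences decide what could be counted for these genes. They were read from the GENCODE M21 transcripts of GRCm38 (mm10) and are written 5′ to 3′. A block of pseudogenes on the minus strand of chromosome 1, between positions 24611535 and 24616197, copies the genome from mt-Co1 to mt-Nd4. Among its 7 annotated copies, 5 matched their mitochondrial gene at every aligned base and 2 differed at 1 base each. The differing stretches are shown because they hold the substitutions that separate each of these pairs, in capitals. In mt-Co1 (chrM:5328-6872, plus strand) and its partial copy Gm29216 (chr1:24615706-24616197, minus strand) it is A1066T, and in mt-Nd3 (chrM:9459-9806, plus strand) and Gm28438 (chr1:24612775-24613119, minus strand) it is T3C, counted from 1 at the 5′ end of the mitochondrial gene.
mt-Co1: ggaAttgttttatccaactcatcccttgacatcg
Gm29216: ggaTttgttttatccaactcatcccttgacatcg
mt-Nd3: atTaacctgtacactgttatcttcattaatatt
Gm28438: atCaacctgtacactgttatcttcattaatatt

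Overlapping genes share reads as well. The last 43 bases of mt-Atp8 (chrM:7766-7969) are the start of mt-Atp6 in another reading frame, and the last 7 bases of mt-Nd4l (chrM:9877-10173) are the start of mt-Nd4. Within each pair no tRNA gene lies between the genes, so their values below are not shown to be levels of separate mRNAs. The shared bases are in capitals.
mt-Atp8: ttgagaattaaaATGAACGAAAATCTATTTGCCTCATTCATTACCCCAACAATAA
mt-Nd4l: caacctactacaATGCTAA
In 3 of the 13 mRNAs the annotated gene ended in a single T of the stop codon, in capitals here, and the other 10 genes held a complete stop.
mt-Co3: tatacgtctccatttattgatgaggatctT
mt-Nd4: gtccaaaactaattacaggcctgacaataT
mt-Cytb: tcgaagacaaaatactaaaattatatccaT
The longest and the shortest tRNA gene, mt-Tl1 (leucine) and mt-Ts2 (serine), are printed whole because no tRNA gene is long enough to hold a 76-base read.
mt-Tl1: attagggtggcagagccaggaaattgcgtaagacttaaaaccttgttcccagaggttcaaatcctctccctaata
mt-Ts2: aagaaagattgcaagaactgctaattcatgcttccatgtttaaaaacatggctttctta

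The tables held 48.6 M expected counts over genes in replicate 1 and 62.1 M in replicate 2. An expected count is an estimate of the fragments from a gene. TPM, the level used to compare genes, is the count divided by the gene's effective length (the positions at which a fragment can start) and scaled to the same sum in each library. The counts of the libraries differed by more than sampling noise (median chi-square 8.90 over 14795 genes, against 0.455 for noise), so they were treated as separate libraries. Every interval given below for a share or a ratio is the exact 95% binomial interval, which covers counting error only and not the split of reads between copies. No p-value was computed, since there is 1 group.

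Mitochondrial genes took 1.31% of gene counts in replicate 1 (interval 1.31% to 1.32%) and 2.07% in replicate 2 (2.07% to 2.08%), a mean of 1.69% ± 0.538 (SD, n = 2). The share was thus higher in replicate 2, and the counting intervals did not overlap. The mRNAs of complex IV, the cytochrome c oxidase, held 68.1% of all mitochondrial counts in replicate 1 and 72.9% in replicate 2. Complex I, the NADH dehydrogenase, held 12.99% and 10.8% through 7 mRNAs. mt-Cytb, the mitochondrial subunit of complex III, held 10.2% and 7.84%, and the complex V (ATP synthase) pair 5.38% and 4.59%. The rRNAs held 3.31% and 3.84%, after the depletion the labels describe.

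All 22 tRNA genes were listed at 0 counts in both libraries. They are 59 to 75 bases long, and 14 lie on the plus and 8 on the minus strand. Their effective length was also 0 in the tables, as it was for 6060 genes in all, and the shortest gene with an effective length above 0 had 155 bases. The RNA was also kept only above 200 nucleotides. These zeros are therefore not measurements of the tRNAs, none of them ranks above another, and the values below are those of the other 15 genes.

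The complex IV mRNAs mt-Co1 and mt-Co3 were among the 3 highest in mean TPM, and mt-Co2 was at rank 6. mt-Co1, the catalytic subunit, stood at 7147 TPM in replicate 1 and 10916 in replicate 2, from 333170 and 704963 expected counts, which is 9031 ± 2665 TPM (SD, n = 2 here and below). mt-Co3 (chrM:8607-9390) stood at 3784 and 7338 TPM, or 5561 ± 2513. mt-Co2, which carries the site that takes electrons from cytochrome c, was at 1579 and 1409 TPM, the one complex IV mRNA with the lower value in replicate 2. Its counts were 25935 and 32015, and those of mt-Co3 were 75419 and 202394.

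mt-Cytb (chrM:14145-15288) stood at 2000.3 and 2239.7 TPM, and no 76-base stretch of it was found in a nuclear copy. Its counts were 65121 and 100977. mt-Atp6, the proton channel subunit of the ATP synthase, stood at 2065 and 2584 TPM from 33698 and 58332 counts. These genes were close to each other in level: the lower library of mt-Atp6 lay below the higher library of mt-Cytb.

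mt-Atp8, the small ATP synthase subunit, had the second highest mean TPM of the genome, at 7669 and 8270.1 TPM, on only 599 and 775 counts. Its annotated length of 204 bases left an effective length of 2.23 bases in replicate 1 and 1.93 in replicate 2. Scaled by the annotated length instead, its level was 60.5 and 61.1 CPM per kilobase (CPM being the count scaled to the same sum over genes in each library), which placed it at rank 13 of the 15 genes. Its reads also fall partly on the bases shared with mt-Atp6. Its rank by TPM rests on that divisor, and its level is uncertain.

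**Figure D1:**
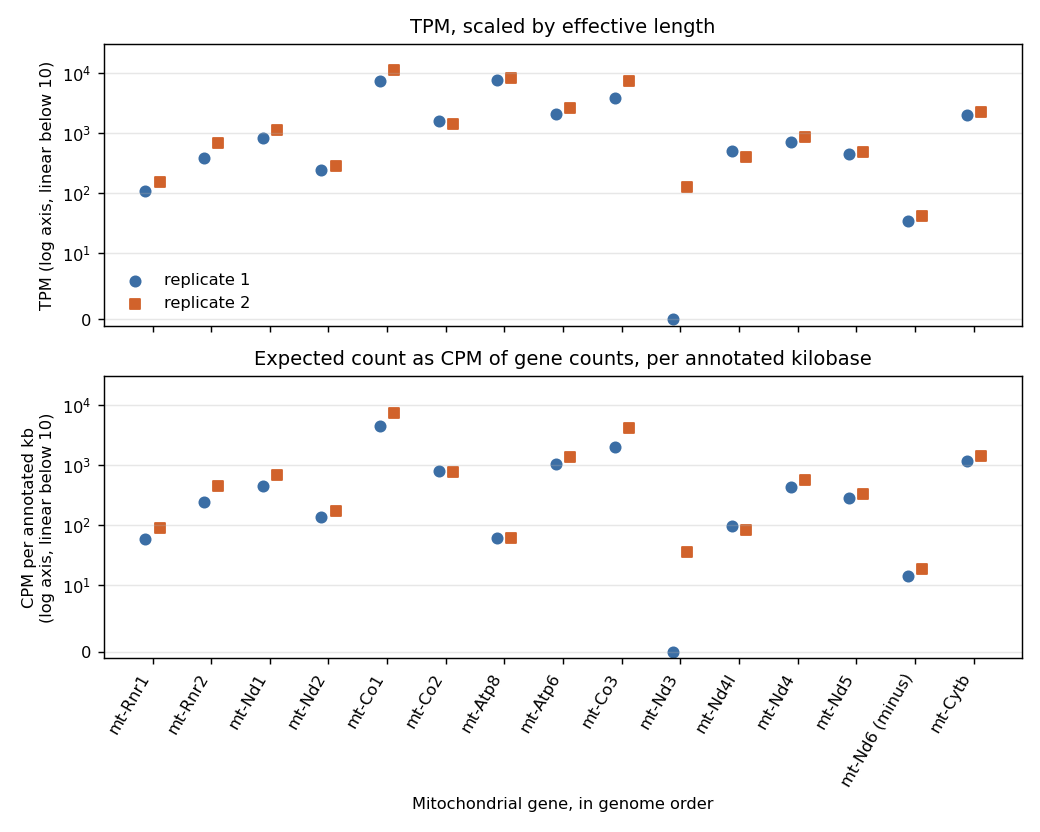
Levels of the 15 mitochondrial mRNAs and rRNAs in genome order, as TPM (upper panel) and as CPM per annotated kilobase (lower panel), with 1 point per library on log axes that are linear below 10. mt-Co1 has the highest mean on both scales but lies below mt-Atp8 in TPM in replicate 1, mt-Atp8 falls from 7669 and 8270.1 TPM to 60.5 and 61.1 CPM per kilobase, and mt-Nd3 is at 0 in replicate 1.

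The 7 mRNAs of complex I ranged widely. mt-Nd1 stood at 811 and 1108 TPM in replicates 1 and 2, and mt-Nd4 (chrM:10167-11544) at 702 and 851. mt-Nd5, the largest mitochondrial subunit, was at 438 and 481 TPM, and mt-Nd2 at 234 and 276. These 4 genes had from 6752 counts (mt-Nd2, replicate 1) to 48026 (mt-Nd4, replicate 2), and each was higher in replicate 2. mt-Nd4l was at 489 and 388 TPM on 1401 and 1520 counts, and was lower in replicate 2. mt-Nd3 was listed at 0 counts in replicate 1 and at 781 counts, or 122 TPM, in replicate 2. mt-Nd6, the only mRNA of the minus strand, was at 33.2 and 40.55 TPM on 353 and 596 counts.

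The rRNAs lie at the start of the heavy-strand precursor. mt-Rnr1, the RNA of the small mitochondrial ribosomal subunit, stood at 105.1 and 148.7 TPM from 2725 and 5338 counts. mt-Rnr2, that of the large subunit, stood at 384 and 665 TPM from 18420 and 44156 counts. mt-Rnr2 was 3.66 times mt-Rnr1 in replicate 1 and 4.47 times in replicate 2. Its level was below that of the neighbouring mt-Nd1 in both libraries, at 0.474 and 0.600 times. The library protocol removes rRNA and keeps polyadenylated RNA, and its part in these levels was not tested.

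Ordered by mean TPM, the genes ran from mt-Co1 through mt-Atp8 and mt-Co3, then mt-Atp6, mt-Cytb, mt-Co2, mt-Nd1, mt-Nd4, mt-Rnr2, mt-Nd5, mt-Nd4l, mt-Nd2, mt-Rnr1, mt-Nd3 and mt-Nd6. Of the 14 neighbours in this order, 7 overlapped in the values of the 2 libraries and 10 kept the same order in both. The overlapping neighbours were mt-Co1 with mt-Atp8, mt-Atp6 with mt-Cytb, mt-Nd1 with mt-Nd4, mt-Rnr2 with mt-Nd5, mt-Nd5 with mt-Nd4l, mt-Rnr1 with mt-Nd3, and mt-Nd3 with mt-Nd6. The steps without overlap set mt-Atp8, mt-Co3, mt-Cytb, mt-Co2, mt-Nd4, mt-Nd4l and mt-Nd2 above the gene that follows each of them. The order changed where the TPM of the nuclear copies described below was added. mt-Nd4l then stood at 3832 and 3513 TPM, at rank 4 above mt-Atp6, mt-Co2 and mt-Cytb, and mt-Nd3 at 294 and 535 TPM, at rank 12 above mt-Nd2. These ranks rest on short effective lengths and are uncertain. In replicates 1 and 2 these were 81.7 and 80.5 bases for mt-Nd4l, of 297 annotated bases. For mt-Nd3 they were 132.6 and 131.4 bases, of 348. The summed order was not computed per annotated kilobase. With copies added, mt-Co1 stood at 13445 and 20276 TPM, above mt-Atp8 in both libraries, and mt-Co2 at 1936 and 2804 TPM. The mt-Co1 sum is not a level of that mRNA, because its copy is partial. Counts of Gm29216 were divided by an effective length of 277 bases in replicate 1, against 1329 for mt-Co1. By counts the copy held only 15.5% and 15.1% of the pair.

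Along the plus strand, genes that are cut from the same precursor stood at very different levels. mt-Co1 was 30.5 times its upstream mRNA neighbour mt-Nd2 in TPM in replicate 1 and 39.5 times in replicate 2. mt-Nd2 was 0.289 and 0.249 times mt-Nd1. Far downstream, mt-Cytb was 4.57 and 4.65 times mt-Nd5, so the level did not fall steadily with distance from the promoter. These genes have under 10% of their 76-base stretches in a nuclear copy, except mt-Co1.

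The minus strand was low. The median of the 12 plus-strand mRNAs was 1195 TPM in replicate 1 and 1259 in replicate 2, and mt-Nd6 stood at 2.78% and 3.22% of it. Its opposite-strand neighbour mt-Nd5, with which it shares 14 bases, was 13.2 and 11.9 times as high. Per annotated kilobase of counts, mt-Nd6 was at 3.18% and 3.002% of the plus-strand median, and without mt-Atp8 at 4.09% and 3.66% of the TPM median. In human cells the mRNA of this gene is known to lack the poly(A) tail of the others, and the part of poly(A) selection here was not tested.

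How much of a gene can be told from the nuclear genome differed greatly. Each gene was cut into all of its overlapping stretches of 76 bases, the length of 1 read, and these were looked for in the nuclear copies. The share found there was 99.9% for mt-Co3, 99.5% for mt-Co2 and mt-Atp6, 98.6% for mt-Nd4l and 97.8% for mt-Nd3. It was 61.5% for mt-Nd4, 39.4% for mt-Co1, 5.61% for mt-Nd2 and 1.54% for mt-Nd5. mt-Rnr1, mt-Rnr2, mt-Nd1, mt-Atp8, mt-Nd6 and mt-Cytb had none. Only annotated transcripts were searched, so for mt-Atp8, which lies between mt-Co2 and mt-Atp6, the unannotated bases of the block were not examined.

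The copies took up counts in both libraries. With a copy defined as a gene that matches at 90% identity or more over at least 80% of its transcript, 15 annotated genes in the tables were copies, and 6 of them reached 1 TPM, all in the block on chromosome 1. The seventh copy of the block, Gm28439, had 0 counts. The remaining 8 lay on chromosomes 2, 4, 11 and 13, and none exceeded 0.395 TPM on average. Together the copies took 120775 counts in replicate 1 and 197142 in replicate 2. That is 15.9% and 13.3% of the counts given to mitochondrial genes and copies together, and adding them raised the mitochondrial share of the libraries to 1.56% and 2.39%.

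Each copy was read beside the gene it matches. Gm29216, which holds bases 1063 to 1545 of mt-Co1, had 61058 and 125316 counts (6297 and 9360.5 TPM), or 15.5% and 15.1% of the pair, nearly the same split in both libraries. Gm28437, identical to mt-Co3 over 783 bases, had 41828 and 24821 counts (2102 and 901 TPM), 35.7% and 10.9% of the pair. By posterior mean count, the second deposited estimate, it had 54717 and 73356 counts, 46.7% and 32.3% of the pair. Gm28661, identical to mt-Co2 over 681 bases, had 5820 and 31485 counts (357 and 1395 TPM), 18.3% and 49.6%, or 24.7% and 42.7% by posterior mean count. By either estimate the copy's share was lower in replicate 2 for mt-Co3 and higher for mt-Co2.

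Gm10222, identical to mt-Nd4l over 294 bases, held most of its pair, with 9222 and 11776 counts (3342 and 3125 TPM), or 86.8% and 88.6%. Gm28438 took all 1337 counts of the mt-Nd3 pair in replicate 1 (294 TPM) and 2580 counts, 76.8%, in replicate 2 (413 TPM). Its single difference from mt-Nd3, printed above, lies at the third base of the gene. Gm10925, identical to mt-Atp6 over 678 bases, had 1501 and 1151 counts (92.5 and 51.3 TPM), 4.26% and 1.94%, or 12.1% and 5.58% by posterior mean count. Gm28439, identical to the first 876 bases of mt-Nd4, had 0 counts in both libraries, although mt-Nd4 has 28624 and 48026. Identical sequence was thus given to the copy in shares that ran from 0% to 88.6% across pairs, and no read from a shared stretch alone can tell them apart.

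**Figure D2:**
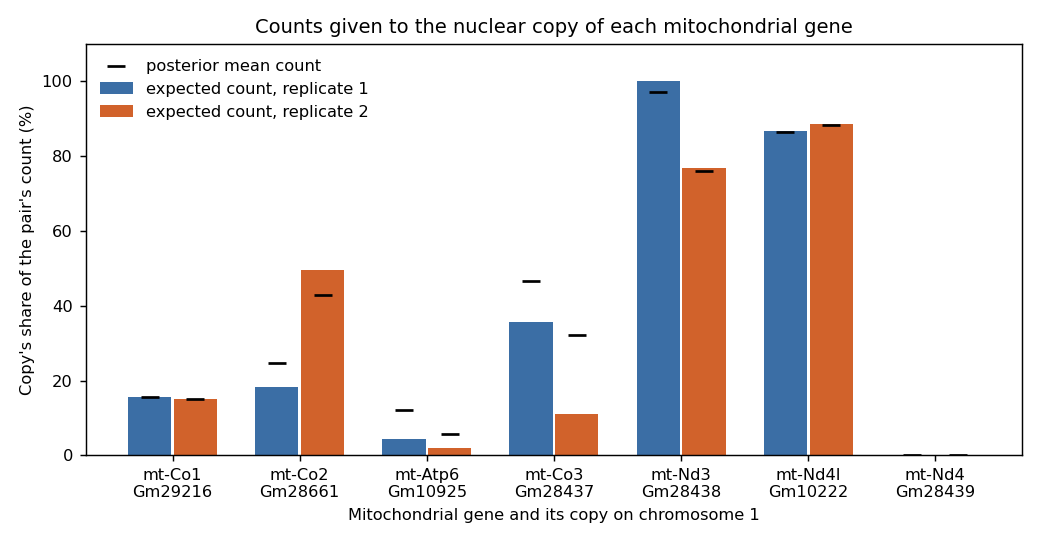
Share of the counts of each pair given to the copy on chromosome 1, as a percentage, by expected count (bars, 1 per library) and by posterior mean count (black marks). The share for Gm28437 was 35.7% in replicate 1 and 10.9% in replicate 2, that for Gm28661 18.3% and 49.6%, and Gm28439 has no bar because it had 0 counts.

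The tables also hold a posterior mean count with a standard deviation, which describes the spread of that estimate. A small standard deviation does not show that the split between gene and copy is right. Among the 8 genes with under 10% of their stretches in a copy, that standard deviation was at most 0.0520% of the mean in either library. Among the 5 genes with over 90% it ran from 2.88% (mt-Atp6, replicate 2) to 92.1% (mt-Nd3, replicate 1). For mt-Co3 the posterior mean was 62530 ± 21345 counts in replicate 1 and 153859 ± 29586 in replicate 2 (posterior SD), against expected counts of 75419 and 202394. For mt-Co2 it was 23917 ± 1885 and 36361 ± 7472, which turns the order of the libraries in TMM-scaled counts. For mt-Nd3 in replicate 1 it was 39.7 ± 36.5, and the deposited TPM interval reached 24.4, so the listed 0 does not show that the mRNA was absent.

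**Figure D3:**
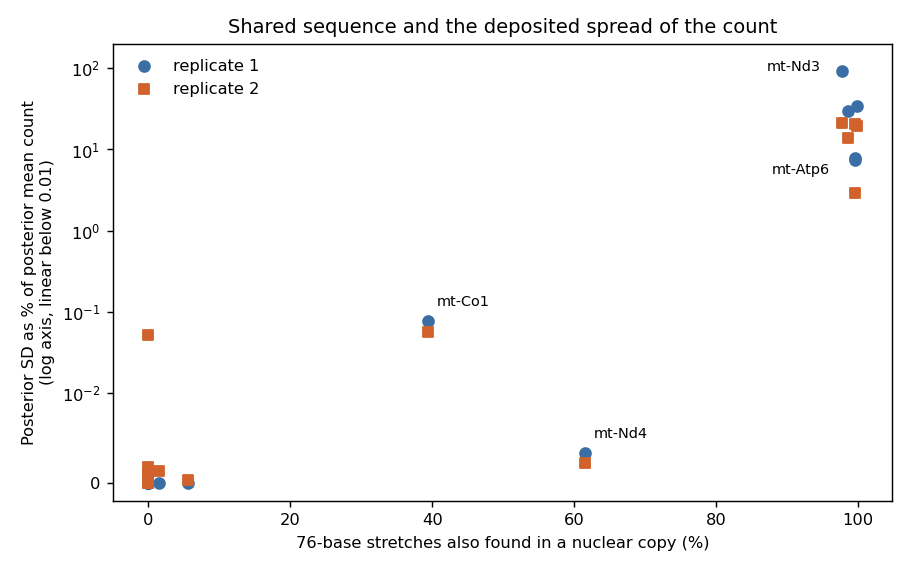
Share of each gene's 76-base stretches that also occur in a nuclear copy (horizontal axis, %) against the posterior standard deviation as a percentage of the posterior mean count (vertical log axis, linear below 0.01), with 1 point per gene and library for 15 genes. The 5 genes with over 90% shared stretches lie between 2.88% and 92.1%, and mt-Nd4, with 61.5% shared, lies near 0.

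The deposited TPM interval, whose level is not given in the sources used here, was a further description of the same spread. The interval of replicate 2 lay wholly above that of replicate 1 for 11 of the 15 genes, as it did for 14.1% of the 17989 genes with at least 20 summed counts. That background holds genes with far fewer counts than most of the 15, and the width of an interval depends on counts. The 11 include mt-Nd3, whose 0 in replicate 1 stood beside 1337 counts given to Gm28438. The intervals overlapped for mt-Co2, mt-Atp8, mt-Co3 and mt-Nd4l. For mt-Co3 the interval ran from 1817 to 4929 TPM in replicate 1 and from 4108 to 7297 in replicate 2. For mt-Cytb it ran from 1963 to 1994 and from 2208 to 2236, a far narrower span at a lower level. The deposited TPM itself lay inside its interval for 12 genes in replicate 1 and 11 in replicate 2.

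The libraries were next compared by the log2 ratio of replicate 2 over replicate 1, on library sizes scaled by TMM, a method that removes differences in composition. With 1 library on each side the ratio has no replicate check. Of the 15 genes, 12 were higher in replicate 2, where 51.4% of all 17989 genes with at least 20 summed counts were. The median over the 14 genes with counts in both libraries was 0.32, against 0.01 for all genes. At least 2-fold apart was mt-Nd3 alone, through its 0, so 1 of 15, where 7.54% of all genes passed that limit in either direction and 5.32% towards replicate 2. mt-Co3, at 0.99 (0.98 to 1.00), was just under it.

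Among the 8 genes with little or no shared sequence the ratios ran from -0.06 to 0.83, with a median of 0.30. mt-Rnr2 had the highest, at 0.83 (0.80 to 0.85), and mt-Rnr1 was at 0.54 (0.47 to 0.60). mt-Nd1 was at 0.49 (0.46 to 0.51), mt-Nd2 at 0.28 (0.23 to 0.32), mt-Nd6 at 0.32 (0.13 to 0.52), mt-Cytb at 0.20 (0.19 to 0.21) and mt-Nd5 at 0.17 (0.15 to 0.20). The difference between libraries was therefore uneven among these plus-strand genes, larger for the rRNAs than for mt-Nd5 and mt-Cytb. The part of rRNA depletion in the rRNA ratios was not tested. The ratio of mt-Atp8, -0.06 (-0.22 to 0.09), had an interval that includes 0.

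For the genes with a copy, the ratio depended on whether the copy was counted. mt-Co1 was at 0.65 alone and 0.64 with Gm29216 added. mt-Co3 was at 0.99 alone and 0.52 (0.51 to 0.53) with Gm28437, whose own ratio was -1.19 by expected count and -0.01 by posterior mean count. mt-Co2 was at -0.13 alone and 0.57 (0.55 to 0.59) with Gm28661, whose own ratio was 2.00 by expected count and 1.36 by posterior mean count, so its direction turned. Summed, the 3 complex IV genes thus ran from 0.52 to 0.64, where alone they had run from -0.13 to 0.99.

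mt-Nd3 with Gm28438 was at 0.90 (0.80 to 0.99), the highest of the summed values. mt-Atp6 was at 0.36 alone and 0.32 with Gm10925, and mt-Nd4 was at 0.31 either way. mt-Nd4l was lower in replicate 2 on both counts, at -0.32 (-0.42 to -0.21) alone and -0.11 (-0.15 to -0.07) with Gm10222. With all copies added, 13 of the 15 genes were higher in replicate 2, with a median of 0.32, and none was 2-fold apart. This sum was chosen after the values had been seen.

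**Figure D4:**
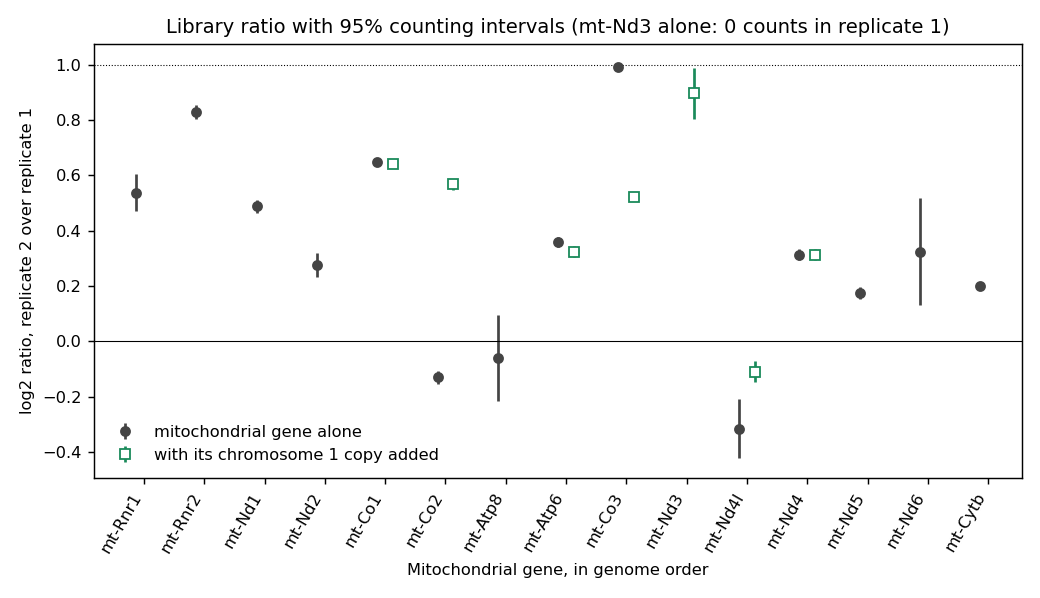
Log2 ratio of replicate 2 over replicate 1 for each mitochondrial gene alone (filled circles) and with its chromosome 1 copy added (open squares), with 95% counting intervals as bars, in genome order; the dotted line marks a 2-fold difference. mt-Co2 moves from -0.13 to 0.57 and mt-Co3 from 0.99 to 0.52 when the copy is added.

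Markers of another tissue differed between the libraries beside this shift. All 8 heart muscle markers were at least 2-fold higher in replicate 2, against 5.32% of all genes with at least 20 summed counts. Their summed level was 178 TPM in replicate 1 and 1932 TPM in replicate 2. Tnni3, a cardiac troponin, stood at 63.6 and 898 TPM, Myh6, a cardiac myosin, at 8.46 and 86.9, and Nppa, the atrial peptide, at 1.36 and 154. Of the 7 skeletal muscle markers with enough counts, 4 were 2-fold higher, and the whole list of 8 summed to 20.6 and 184 TPM. Most of that sum was Ckm, a muscle creatine kinase, at 10.7 and 163 TPM, and the other 7 summed to 9.94 and 21.2 TPM. Among 8 brown fat markers 2 were 2-fold higher (Cox7a1 and Ppargc1a) and 3 lower (Ucp1, Elovl3 and Otop1). Over all genes, 7.54% were 2-fold apart in either direction. Ucp1, the uncoupling protein, stood at 346 and 124 TPM. The list summed to 558 and 417 TPM, and the 7 markers other than Ucp1 to 213 and 293 TPM. No marker of these lists was at 0 in both libraries, and the part of other tissue in the mitochondrial ratios was not tested.

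The 10 thymocyte markers, those of the labelled tissue, summed to 4329 and 4394 TPM, with none 2-fold apart, against 7.54% of all genes. Without Lck, the other 9 summed to 3002 and 2940 TPM. Single markers went both ways, 6 higher and 4 lower in replicate 2, from -0.44 for Cd3e, a chain of the T cell receptor complex, to 0.25 for Cd3d, another, so that some differed by as much as the mitochondrial median. Of the other cells of the organ, the 7 thymic epithelium markers summed to 1024 and 1354 TPM. Much of that difference was Prss16, at 537 and 801 TPM, and the other 6 summed to 488 and 553 TPM. Epcam, at -0.31, was the 1 epithelial marker lower in replicate 2. The 8 macrophage and dendritic markers summed to 950 and 1317 TPM. All 8 were somewhat higher in replicate 2, against 51.4% of all genes, with a median log2 ratio of 0.48. In a bulk sample, fewer cells of a type and less RNA per cell cannot be told apart.

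The nuclear subunits of the respiratory chain were set beside the mitochondrial ones. Of 75 such genes, 67 were higher in replicate 2, against 51.4% of all genes with at least 20 summed counts. Their median ratio was 0.24, and none was 2-fold apart, against 7.54% of all genes. By complex, the median ratio was 0.22 for complex I (33 of 36 higher), 0.14 for complex II (4 of 4), which has no mitochondrial subunit, 0.30 for complex III (8 of 9), 0.30 for complex IV (10 of 11) and 0.14 for complex V (12 of 15). Their median levels were below those of the mitochondrial mRNAs of the same complex. The median TPM of the nuclear complex I genes was 118, against 439 for the 7 mitochondrial ones, and that of complex IV was 432 against 5561 for 3. For complex III the nuclear median was 309 TPM, against 2119.99 for mt-Cytb. For complex V it was 239, against 2324 for mt-Atp6 and the uncertain 7969 for mt-Atp8. Over all genes with at least 20 summed counts the median was 7.695 TPM.

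Single nuclear subunits spanned a wide range within each complex. Complex I ran from Ndufa5 at 3.04 TPM on average to Ndufs7 at 478, complex II from Sdha at 98.7 to Sdhb at 175, and complex III from Uqcrb at 17.8 to Uqcr11 at 1192. Complex IV ran from Cox7a2 at 117 to Cox6a1 at 2362 TPM. Complex V ran from Atp5k at 33.6 to Atp5b, the catalytic beta subunit, at 3302. Among these 75 genes, Atp5b and Cox6a1 had a mean TPM above that of mt-Atp6, and both were below mt-Co3. Cox6a1, at 2376 and 2347 TPM, was above mt-Atp6 in replicate 1 only. Its mean was below the 2396 TPM of mt-Atp6 with Gm10925 added.

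Nuclear genes also copy, cut, stabilise and translate mitochondrial RNA. Of 62 such genes, 24 were higher in replicate 2, against 51.4% of all genes, with a median ratio of -0.04. Only 1 was 2-fold apart, against 7.54% of all genes. This was Mterf1b, at 0.56 and 0.26 TPM from 22.7 and 14.7 counts. The median level of the 62 genes was 11.8 TPM. Among 8 transcription genes, the polymerase Polrmt was highest at 86.4 TPM on average and Mterf1b lowest at 0.410. Tfam, which packs the DNA and starts transcription, stood at 10.3 and 9.91 TPM. Among 8 genes of replication and the nucleoid, the DNA polymerase Polg was highest at 125 TPM and Primpol lowest at 3.02.

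The processing lists had the same kind of spread. For tRNA excision, Hsd17b10, a subunit of the enzyme that cuts the 5′ ends of the tRNAs, was highest at 49.0 TPM and Fastkd5 lowest at 3.25 among 7 genes. For RNA stability and polyadenylation, Fastk, a mitochondrial form of which is needed for mt-Nd6 mRNA, was highest at 365 TPM and Fastkd2 lowest at 3.41 among 13. The poly(A) polymerase Mtpap stood at 5.39 and 5.20 TPM, and Lrpprc and Slirp, which bind and keep mitochondrial mRNAs, at 10.6 and 7.93 and at 8.80 and 13.8 TPM. Among 15 genes of rRNA modification and ribosome assembly, Mterf3 was highest at 485 TPM, although on only 801 and 1113 counts, and Tfb1m lowest at 1.56. Among 11 translation genes, the membrane insertase Oxa1l was highest at 121 TPM and the release factor Mtrf1 lowest at 1.17.

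**Figure D5:**
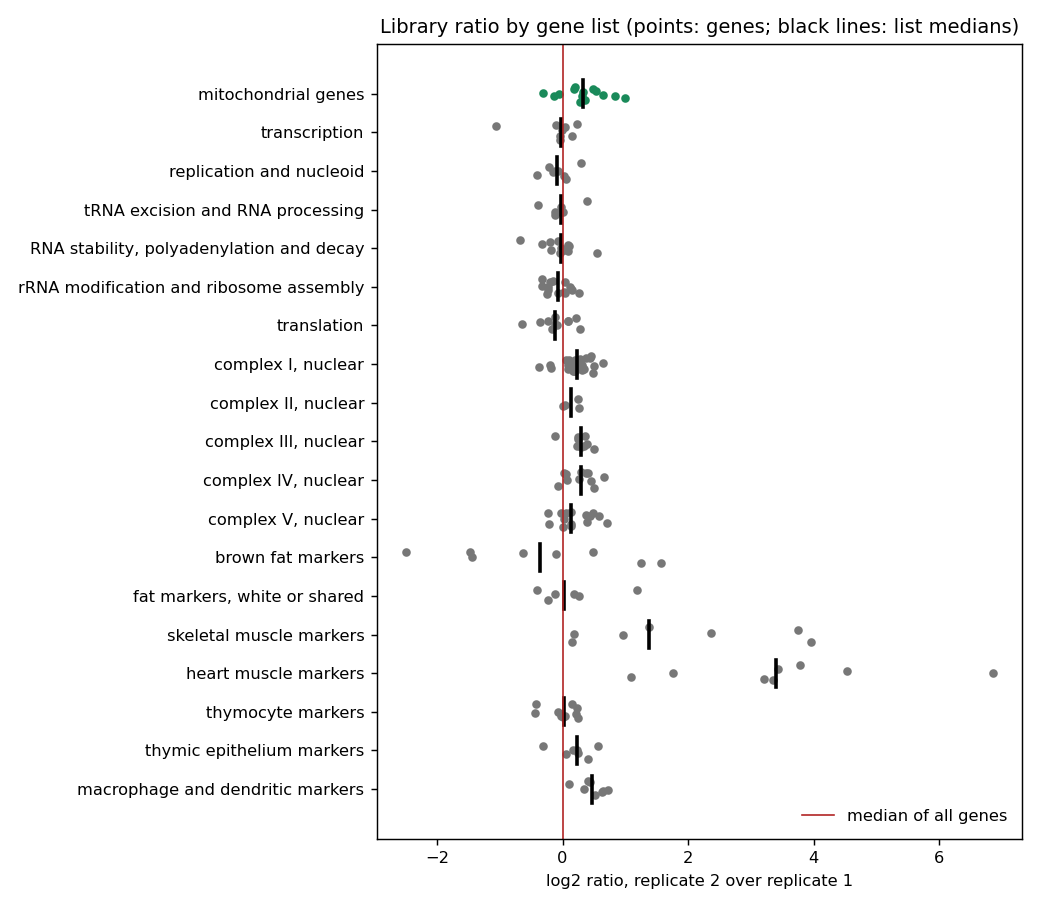
Log2 ratio of replicate 2 over replicate 1 for the mitochondrial genes and for each list of nuclear genes and cell type markers, with 1 point per gene, a black line at each list's median and a red line at the median of all genes (0.01). The mitochondrial genes have a median of 0.32, the nuclear complexes lie between 0.14 and 0.30, and the heart muscle markers lie far to the right with a median of 3.40.

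The authors also deposited contigs (stretches covered by reads) and splice junctions for both replicates together, on the older build mm9, and these were not joined to the gene positions above. On the mitochondrial chromosome 14 of the 777779 contigs were listed, 11 on the plus strand and 3 on the minus strand. The plus-strand contigs covered 13629 bases with a mean coverage of 14712 reads per base, and the minus-strand contigs covered 533 bases at 4.21. Of the summed mitochondrial coverage, the plus strand held 99.999% in the authors' values. The 3 minus-strand contigs all lay between 9399 and 9995 on mm9. In the gene tables mt-Nd6, on the minus strand, had 353 and 596 counts, so this share was not read as its level.

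Among the plus-strand contigs, 4 were high and covered 12144 bases between them. On the authors' level scale they stood at 55.5 (23 to 1003), 1170 (1094 to 6735), 412 (10724 to 11650) and 345 (11702 to 16295). Between 6736 and 10723, a stretch of 3988 bases, the 7 plus-strand contigs covered 1485 bases with levels of only 0.066 to 0.387 and a mean coverage of 5.13, against 16511 for the high contigs. The level thus dropped sharply at both edges of that stretch. How reads with several matches were placed in the contigs is not given in the sources used here, and its part was not tested.

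The junction list held 233 entries on the mitochondrial chromosome, which has no introns, of 532115 in all. They had 768 reads, 0.00197% of all junction reads. On the plus strand lay 226 of them, and 149 had 1 read each. Only 7 had at least 10 reads. The most read, 129 and 128 reads, spanned 67 bases (6451 to 6517) and 61 bases (6458 to 6518) and overlapped each other, and the next, with 63 reads, spanned 14428 to 14538. The most read junction of the whole list had 111553 reads.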

How the data were processed

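The 2 thymus libraries were analysed as 1 group of 2 replicates. The authors deposited a gene table per library. Per the file headers it holds expected counts and posterior mean counts (estimated counts of fragments), TPM, and, in the deposited signal columns, TPM interval bounds and the posterior standard deviation. Features were quantified on mm10 with GENCODE M4, per the text files deposited with the libraries; the quantifier and the aligner were not named there, and how shared reads were split is not given in the sources used here. The contig and junction lists, deposited without a header on mm9, hold the authors' coverage signal, a score and whole read counts, with meanings read from the values.

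Symbols and positions came from GENCODE M21 (GRCm38), matched by gene ID without version for 42462 of 43346 genes. Transcripts of all nuclear genes were aligned with blastn 2.17.0 (e-value 1e-10) to the 37 mitochondrial transcripts, since no genome sequence was used here. A copy had at least 90% identity over at least 80% of its transcript. Ratios used library sizes scaled by TMM in edgeR 4.0.16 (used for scaling only, as was DESeq2 1.42.0 in an alternative), over genes with at least 20 summed counts. A ratio of at least 2-fold counted as apart. The scaling and ratio steps were tested on simulated data. Of 195 list symbols, 192 were matched.

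Named were all mRNAs and rRNAs, copies with at least 1 TPM, and the highest and lowest member of each nuclear list; other genes were named after their values were seen. The rule to name tRNAs by count was void because all were at 0. The members and lists were chosen with earlier results of these data known. Alternatives changed the unit, scaling, filter, estimate, copy definition or library. The transcript tables were not used. Scripts ran in R 4.3.3 and in Python 3.11.15 with matplotlib 3.10.9 for the plots, scipy 1.17.1 for the intervals, and pandas 2.3.3 and numpy 2.4.6 for the tables.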

Additional observations from a re-analysis of the deposited data

How the results depend on the processing

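The mitochondrial share was 3.21% as a share of summed TPM, and the median mRNA level was 494 as CPM per annotated kilobase and 2119.99 TPM with copies added, against 959 TPM. mt-Nd6 stood at 3.88% of the plus-strand median without mt-Atp8, against 2.999%. The median log2 ratio of 0.32 was 0.40 on total counts, 0.31 with DESeq2 size factors, 0.41 on spike-in counts, 0.28 on TPM and 0.32 with copies added. Then 2 genes (mt-Co3 and mt-Nd3) were 2-fold apart on total or spike-in counts, and 0 with copies added. On those scalings 61.5% and 63.1% of all genes were higher in replicate 2, with 12 of the 14 mitochondrial genes that had counts in both. The ratio of mt-Co2 turned to 0.17 with the posterior mean count and to 0.57 with its copies. That of mt-Atp8 turned to 0.016 on total counts, 0.030 on spike-in counts and 0.11 on TPM. On total and spike-in counts the median ratio of all genes was 0.09 and 0.10, against 0.01. The TPM of mt-Atp8 was divided by effective lengths of 2.23 bases in replicate 1 and 1.93 in replicate 2. For these turns beyond the copies' counts the cause was not tested. The alternatives without mt-Atp8 and with copies added to the ratio were chosen after seeing the data. The share with posterior mean counts or without Rn7sk and Gm42418 moved by less than the spread between libraries. The copies numbered 11 at 95% identity over 90% and 18 at 80% over 50%, against 15, and their share of the counts of genes and copies, as the mean of both libraries, was 14.6% under each. With 1 library left out, each value was that of the other library. No paired analysis was possible because there is 1 group. Depth limits mt-Nd6 and mt-Atp8, with 353 and 599 counts in replicate 1. The 0 counts of mt-Nd3 in replicate 1 stood beside 1337 counts given to its copy Gm28438.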
